A study of Mus musculus with 18 samples.

Results

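The genes described here are 40 mouse genes of fatty acid and lipid droplet metabolism, chosen by name and followed in every library of the series. All 40 were found among the 54446 gene IDs of the count files by their symbol, and all 40 passed the filter on low counts that left 15516 genes to test. The 18 libraries came from mice at postnatal day 21 and held cells described in the series title as derived from osterix-expressing osteoprogenitors. They fall into 6 groups of 3: wild-type controls and mice labelled as a conditional knockout of the parathyroid hormone receptor PTH1R (gene Pth1r), each as marrow stromal cells sorted as GFP-Tm+, bone cells sorted as GFP+ and bone cells sorted as GFP-Tm+. The controls were sorted by the same GFP and Tm labels. The labels do not say which promoters drive GFP, Tm or the deletion, whether the controls carry the driver of the deletion, or whether each library came from its own animal. The p-values therefore measure only the spread between these libraries, which may be technical between replicates 1 and 2. Replicate 3 differed from both in Y-linked genes in every group, so it held cells of other animals.

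Fat cells and many other cells store fatty acids as triglyceride in lipid droplets, whose surface is covered by perilipins and related coat proteins. Fatty acids reach the cell when lipoprotein lipase releases them from circulating lipoproteins and CD36 and binding proteins take them up, or are made inside it by ATP citrate lyase, acetyl-CoA carboxylase and fatty acid synthase. Once joined to coenzyme A by acyl-CoA synthetases they are desaturated, elongated, esterified to glycerol or sent through carnitine palmitoyltransferases into mitochondria for oxidation. In bone marrow, stromal reticular cells that support blood cell formation share several of these genes, among them Adipoq and Lpl, with the marrow adipocytes that can arise from them.

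Values are CPM, a gene's reads scaled to a common library size, adjusted by the trimmed mean of M values (TMM), which sets each library's scale from genes in the middle of the range. Folds are knockout over control as log2 ± standard error, from edgeR's two-sided quasi-likelihood test fitted on all 15516 genes, and a gene is called where the p adjusted over all of them by the Benjamini-Hochberg method is below 0.05. Total counts ran from 16443595 to 27160257 per library, so that a count of 0 allows up to 0.0966 to 0.216 CPM, which covers counting error only. In all 3 subsets the fold rose with transcript length across genes (Spearman 0.406, 0.437 and 0.444 in marrow, GFP+ and GFP-Tm+ bone cells), so a second fit with this trend removed is given beside each called knockout fold of the 40 genes that it moves by more than 1.5 times or whose call it ends. Scaling by library totals alone moved the median gene by 0.13, -0.37 and -0.23 log2 in the same order. Y-linked genes were high in replicates 1 and 2 and low in replicate 3 of every group, so sex was balanced between genotypes.

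Pth1r measured 541, 580 and 552 CPM in the control marrow libraries and 372, 337 and 318 CPM in the knockout ones. It measured 4480, 4840 and 5030 against 4040, 3250 and 2720 CPM in GFP+ bone cells, and 1670, 1670 and 1910 against 1400, 1140 and 1030 CPM in GFP-Tm+ bone cells. The groups did not overlap in any subset, with folds of -0.70 ± 0.13, -0.52 ± 0.13 and -0.56 ± 0.13, and in the bone subsets the call ended with the length trend removed (adjusted p 0.094 and 0.0992). These are counts over the whole gene and do not measure the deleted part. Marker genes fitted the marrow label in their highest summed level of 9 stromal genes (23500 to 32300 CPM in control marrow, 359 to 391 in GFP+ and 1330 to 1770 in GFP-Tm+ bone controls), while 8 osteoblast genes summed to 125000 to 185000 CPM there too. Col1a1 made up most of that osteoblast sum (mean 141000 CPM in control marrow). The GFP+ bone cells were richest in 6 cartilage genes, at 93800 to 116000 CPM in controls and 288000 to 318000 in knockouts. In GFP-Tm+ bone cells these genes summed to 28800 to 39200 CPM in controls and 23100 to 30800 in knockouts. In marrow the sums were 1590 to 2180 and 2200 to 2340 CPM.

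Promoter sequence is shown for 3 genes whose folds in marrow were among the largest and whose window held a motif of a lipid-linked factor. RefSeq windows on build GRCm38.p6 (mm10), of 250 bases before and 50 after a transcript start, were given for 31 of the 40 genes, as 41 windows. The 250 bases before the start are printed 5′ to 3′ on the gene's strand, with capitals for the match. Plin1 (chr7:79732777-79733026, minus strand) held the C/EBP motif TTNNGCAA on the opposite strand, from 187 and from 58 bases before the start. Acsl1 (second start, chr8:46490716-46490965, plus strand) held the sterol element TCACNCCAC on the opposite strand, from 76 bases before the start. Lipe (chr7:25395988-25396237, minus strand) held the E-box CACGTG from 155 bases before the start. Its other window held none of the motifs. The Lipe window shown lies inside the gene as counted (25379527 to 25398710), as does part of that of Plin1 (gene end 79732903). In 30 of the 41 windows the bases after the start were in a transcript of the gene.
Plin1: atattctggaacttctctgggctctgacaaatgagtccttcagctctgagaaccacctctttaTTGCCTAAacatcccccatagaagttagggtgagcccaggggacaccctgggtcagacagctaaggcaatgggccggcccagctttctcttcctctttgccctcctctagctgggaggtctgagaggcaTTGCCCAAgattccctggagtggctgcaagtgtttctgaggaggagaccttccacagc
Acsl1: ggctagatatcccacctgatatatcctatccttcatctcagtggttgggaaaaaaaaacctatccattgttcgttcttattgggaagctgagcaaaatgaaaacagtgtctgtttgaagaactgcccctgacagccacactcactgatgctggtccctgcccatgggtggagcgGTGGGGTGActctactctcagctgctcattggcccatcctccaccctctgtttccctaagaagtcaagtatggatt
Lipe: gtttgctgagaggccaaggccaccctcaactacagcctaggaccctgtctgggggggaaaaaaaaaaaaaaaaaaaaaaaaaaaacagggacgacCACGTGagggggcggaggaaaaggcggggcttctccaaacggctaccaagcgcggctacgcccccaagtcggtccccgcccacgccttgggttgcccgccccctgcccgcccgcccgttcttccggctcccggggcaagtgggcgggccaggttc
The C/EBP motif was in 9.68% of the 31 genes with a window (Cidec, Gpam and Plin1) and in 12.2% of all 27025 genes with one. The sterol element was in 3.23% against 1.44%, and the E-box in 16.1% (Elovl5, Lipe, Mgll, Plin2 and Slc27a1) against 8.09%. The PPAR direct repeat (AGGNCA given as a pair spaced by 1 base) was in none of the 31 genes and in 0.451% of all. A motif this rare would seldom be found among 31 genes, so its absence is no result about them. A match is a description of these letters only.

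Most of the 40 genes changed, and more rose than fell. In marrow 25 were higher in the knockout and 3 lower, where 23.1% of all genes tested were called higher and 24.8% lower, and the median fold was 0.87 against -0.04 over all genes. In GFP+ bone cells 21 were higher and 6 lower (26.0% and 25.3% of all genes), with a median of 0.77 against 0.03. In GFP-Tm+ bone cells 17 were higher and 8 lower (21.5% and 25.7% of all genes), with a median of 0.49 against -0.07. With the length trend removed the counts were 26 and 5, 18 and 5, and 16 and 9, and the medians 0.85, 0.56 and 0.23. Scaled by library totals alone, they were 27 and 3, 16 and 10, and 15 and 12, and the share of higher genes among all calls went from 48.2%, 50.7% and 45.6% to 59.6%, 30.9% and 30.8%.

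The 3 comparisons share no library, though equally numbered libraries of different subsets deviated together, and 12 of the 40 genes (30%, against 12.5% of all genes) were called higher in each: Plin1, Lpl, Dgat2, Gpam, Lpin1, Acacb, Fasn, Gpd1, Angptl4, Pdk4, Cpt1a and Apoe. Plin3 was called lower in each, as were 14.0% of all genes. Plin2, Fabp5, Agpat2, Elovl5 and Scd2 (12.5%, against 3.09% of all genes) were called higher in at least 1 subset and lower in at least 1 other. Pnpla2, Mgll and Hadha were called in none, where 28.2% of all genes were called in none.

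**Figure D1:**
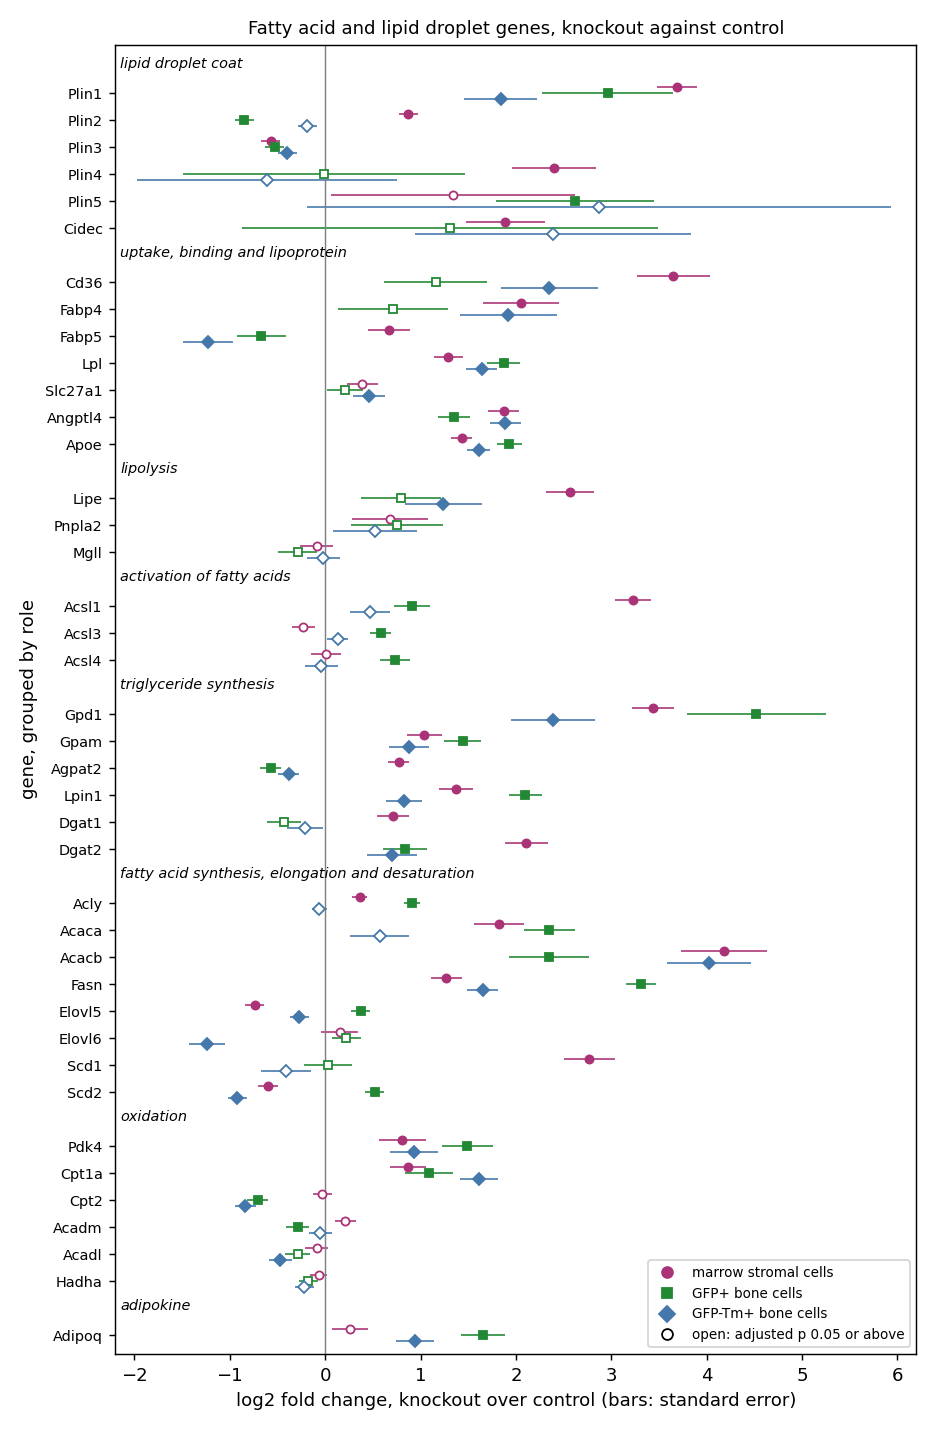
Log2 fold change, knockout over control, of the 40 genes grouped by role (points, with bars for the standard error; the bar of Plin5 in GFP-Tm+ bone cells rests on counts near 0). Circles are marrow stromal cells, squares GFP+ bone cells and diamonds GFP-Tm+ bone cells, and filled points have an adjusted p below 0.05. Plin1, Gpd1 and Acacb lie far to the right in every subset, and Plin2, Fabp5, Agpat2, Elovl5 and Scd2 have filled points on both sides of 0.

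Summed over the 40 genes, control marrow held 7260 ± 660 CPM (SD over 3 libraries, as below) and knockout marrow 15900 ± 1350. The sums were 2230 ± 74.8 and 3540 ± 92.6 in GFP+ bone cells, and 1730 ± 31.2 and 2490 ± 66.4 in GFP-Tm+ bone cells. The genotypes did not overlap in any subset. The larger part of the marrow sum was the uptake and lipoprotein group, at 4360 ± 309 and 11600 ± 1390 CPM, and that of GFP+ bone cells was the fatty acid synthesis group, at 1620 ± 76.1 and 2660 ± 130. In these bulk samples a change in the share of a cell type and a change in RNA per cell cannot be told apart. Summed stromal markers moved with the genotype as well, to 42800 to 51200 CPM in knockout marrow, 782 to 1010 in GFP+ and 4580 to 4880 in GFP-Tm+ bone cells, while osteoblast markers in knockout marrow summed to 54300 to 73700 CPM. Cxcl12 made up most of the stromal sum in knockout marrow (mean 32600 CPM). Osteoblast markers went from 32700 to 54500 CPM in controls to 48300 to 61800 in knockouts in GFP+ bone cells, and from 234000 to 265000 to 314000 to 482000 in GFP-Tm+ bone cells. Smooth muscle and pericyte markers were lower in the knockouts of both, at 16.9 to 28.7 against 31.3 to 47.3 CPM in GFP+ and 106 to 138 against 316 to 426 CPM in GFP-Tm+ bone cells. Their part in the folds below was not tested.

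**Figure D2:**
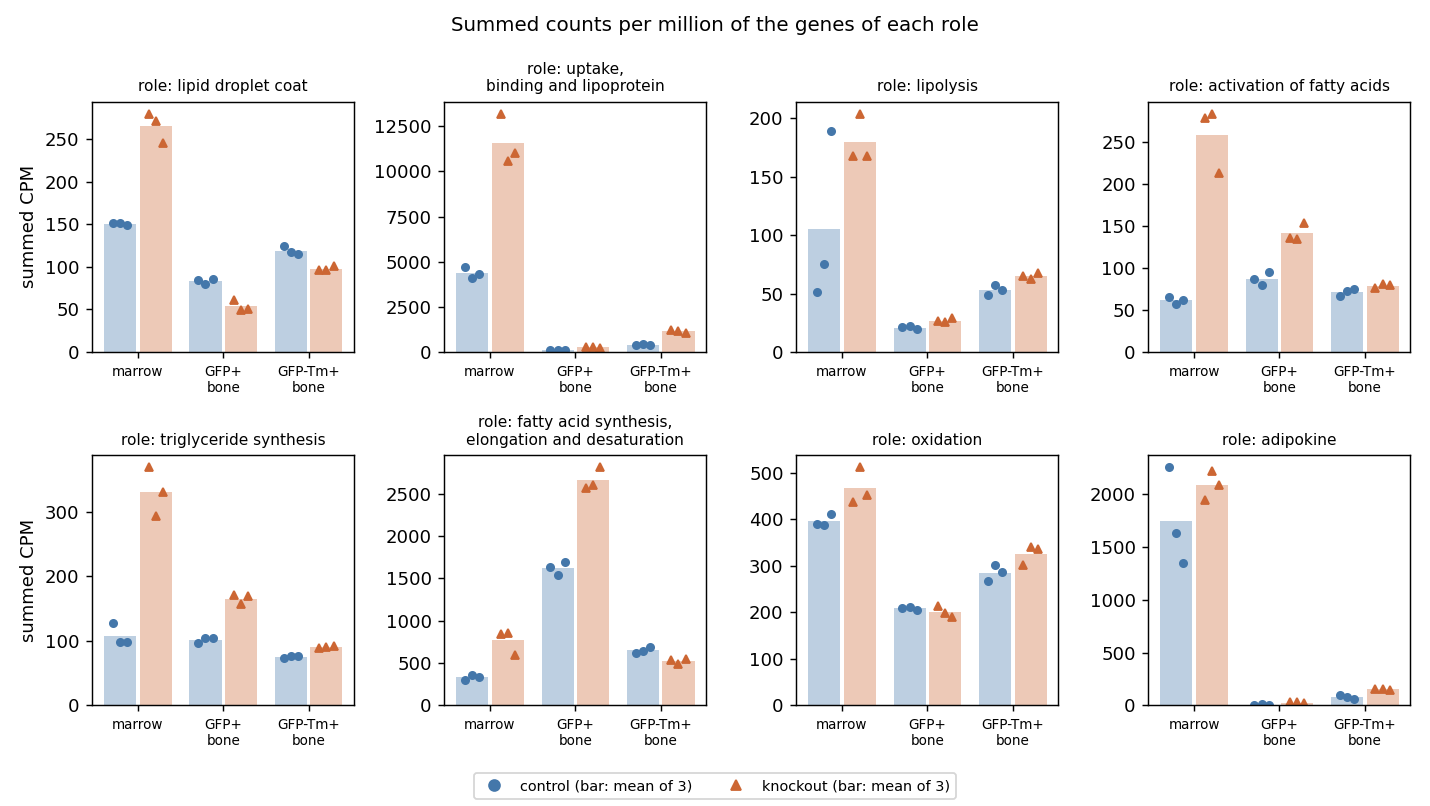
Summed CPM of the genes of each role (vertical axis, scaled to each panel) in the 6 groups, with a point for each library and a bar for the mean of 3. Knockout libraries lie above the controls for the coat sum in marrow and below them in both bone subsets, and for the synthesis sum above them in marrow and GFP+ bone cells and below them in GFP-Tm+ bone cells.

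Among the lipid droplet coat genes Plin1 rose and Plin3 fell in all 3 subsets, while the direction of Plin2 differed between them. Plin1, the perilipin that guards the large droplets of adipocytes (chromosome 7, 79720218 to 79732903, mm10), measured 4.60, 6.24 and 5.33 CPM in control marrow and 88.1, 54.9 and 65.5 CPM in knockout marrow. Every knockout library was above every control, with a fold of 3.69 ± 0.21 (adjusted p 4.32e-10), the smallest p of the 40 genes in that subset. In the bone cells it also rose but stayed low, at a mean of 0.135 and 1.11 CPM in GFP+ (2.96 ± 0.69) and 0.977 and 3.69 CPM in GFP-Tm+ cells (1.84 ± 0.38).

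Plin2, the perilipin of small droplets in most cells, measured 66.9, 61.5 and 63.3 CPM in control marrow and 123, 126 and 99.9 CPM in knockout marrow. In GFP+ bone cells the values were 44.2, 42.4 and 44.4 against 26.0, 22.9 and 23.5 CPM. Those of GFP-Tm+ bone cells were 38.0, 33.7 and 34.6 against 31.2, 32.6 and 28.9 CPM. Plin2 thus rose in marrow (0.87 ± 0.10, adjusted p 6.99e-07), fell in GFP+ bone cells (-0.85 ± 0.10, adjusted p 1.21e-06) and was not called in GFP-Tm+ bone cells (-0.19 ± 0.10), without overlap in any. The knockout fold was lower than in marrow by -1.72 ± 0.14 in GFP+ cells (adjusted p 2.70e-07) and by -1.06 ± 0.14 in GFP-Tm+ cells (adjusted p 1.03e-04).

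Plin3, which coats early droplets and cycles to the cytosol, measured 77.7, 72.6 and 71.0 against 48.9, 47.6 and 52.7 CPM in marrow. It measured 40.3, 36.8 and 40.3 against 31.9, 24.7 and 24.4 CPM in GFP+, and 85.0, 81.3 and 79.5 against 60.8, 59.3 and 65.8 CPM in GFP-Tm+ bone cells. It fell without overlap in all 3 subsets (-0.57, -0.53 and -0.40, each ± 0.10). Per kilobase of exon, Plin2 stood at 0.934 ± 0.0245 of the level of Plin3 in control marrow and at 2.54 ± 0.434 in knockout marrow.

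Plin4 (2.4 ± 0.44) and Cidec (1.89 ± 0.41), a droplet fusion protein of white fat, rose in marrow, from means of 2.12 to 10.7 and of 5.29 to 19.4 CPM. DESeq2 gave them adjusted p-values of 0.0905 and 0.122. With 1 library left out, the fold ran from 1.89 to 3.52 for Plin4 and from 1.31 to 2.62 for Cidec. The highest folds were those without control replicate 3 for Plin4 and without control replicate 2 for Cidec. Plin5, the perilipin of oxidative tissues, was below 1 CPM in every library. Its call in GFP+ bone cells (2.62 ± 0.83) ended with DESeq2 (adjusted p 0.114). With 1 library left out its fold there ran from 2.17 to 4.72, the highest without control replicate 2.

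Of the 7 genes of fatty acid uptake and lipoprotein handling, 6 rose and none fell in marrow, 3 rose and 1 fell in GFP+ and 6 rose and 1 fell in GFP-Tm+ bone cells, where 23.1%, 26.0% and 21.5% of all genes were called higher. Once the length trend was removed, 7, 3 and 6 were called higher and none, none and 1 lower. Angptl4, a secreted inhibitor of lipoprotein lipase, measured 375, 395 and 299 CPM in control marrow and 1260, 1580 and 1070 CPM in knockout marrow. Values of 77.8, 70.4 and 60.7 against 227, 322 and 224 CPM were found in GFP-Tm+ bone cells. Neither pair of groups overlapped, and the folds were 1.87 ± 0.16 and 1.89 ± 0.16 (adjusted p 4.09e-08 and 4.67e-08). It also rose in GFP+ bone cells (1.35 ± 0.17).

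Lpl, the lipase that Angptl4 inhibits, measured 27.5, 28.6 and 28.0 against 126, 99.6 and 81.0 CPM in GFP+ bone cells. It measured 165, 179 and 167 against 633, 474 and 482 CPM in GFP-Tm+ bone cells. All knockout libraries were above all controls, with folds of 1.87 ± 0.17 and 1.64 ± 0.16 (adjusted p 3.94e-08 and 1.33e-07). In marrow, where it was most abundant, it rose from 2740 ± 272 to 6710 ± 1370 CPM (1.29 ± 0.15).

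Apoe, a lipoprotein component that many cells secrete, measured 1290, 1080 and 900 against 2950, 2800 and 3030 CPM in marrow. It measured 18.8, 20 and 17.9 against 69.8, 81.7 and 64.4 CPM in GFP+, and 95.8, 96.1 and 85.7 against 300, 275 and 273 CPM in GFP-Tm+ bone cells. Knockout and control were far apart in each subset, with folds of 1.43 ± 0.11, 1.93 ± 0.13 and 1.61 ± 0.12 (adjusted p 2.07e-08, 1.13e-09 and 7.84e-09). Summed markers of macrophages and osteoclasts, cells rich in Apoe, were at 256 to 281 CPM in control and 167 to 196 CPM in knockout marrow. In GFP+ bone cells they were at 154 to 177 against 104 to 154 CPM, and in GFP-Tm+ bone cells at 351 to 403 against 332 to 357 CPM. The part of such cells in the Apoe folds was not tested.

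Cd36, a fatty acid translocase, rose from 12.7 ± 0.833 to 159 ± 41.0 CPM in marrow (3.65 ± 0.38, adjusted p 2.06e-06). Knockout marrow replicate 2 held 227 CPM of 6 platelet and megakaryocyte markers, cells that also make CD36, against at most 4.48 CPM in the other marrow libraries, and it had the lowest Cd36 of the knockouts, 114 CPM. Without it the fold was 3.84, and the part of platelets and megakaryocytes in the Cd36 folds was not tested. Cd36 was also called in GFP-Tm+ bone cells (2.35 ± 0.51). With 1 library left out this fold ran from 1.93 to 3.16, the highest without control replicate 2. In GFP+ bone cells it was not called (1.16 ± 0.54, adjusted p 0.0874).

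The fatty acid binding proteins Fabp4, of adipocytes, and Fabp5, of skin and macrophages, were called in opposite directions in GFP-Tm+ bone cells alone. Fabp4 rose in marrow, from 86.6 ± 42.7 to 358 ± 11.1 CPM (2.05 ± 0.40), and in GFP-Tm+ bone cells (1.92 ± 0.51). Fabp5 measured 30.5, 22.8 and 24.6 against 10.9, 7.67 and 14.9 CPM in GFP-Tm+ and 17.7, 17.5 and 13.4 against 10.5, 9.89 and 10.4 CPM in GFP+ bone cells. It fell in both, by 1.23 and 0.67 on the log2 scale, while in marrow it rose (0.67 ± 0.22) with groups that overlapped. Its calls in marrow and GFP+ bone cells rested on each of several libraries: leaving out 1 library ended the marrow call without replicate 1 or 3 of either genotype (adjusted p up to 0.103) and the GFP+ call without control replicate 1 or 2 or any knockout library (up to 0.104). The GFP+ call also ended with the length trend removed (adjusted p 0.0632). For Fabp4 in GFP+ bone cells, control replicate 1 was high (8.77 against 1.81 and 1.11 CPM), and the fold was 0.71 with it and 2.15 without it (adjusted p 0.331 and 0.00159). The transporter Slc27a1 was called in GFP-Tm+ bone cells (0.46 ± 0.17), a call lost without control replicate 3 or knockout replicate 1 or 2 (adjusted p up to 0.161), and was just outside the threshold in marrow (0.39 ± 0.16, adjusted p 0.0521).

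**Figure D3:**
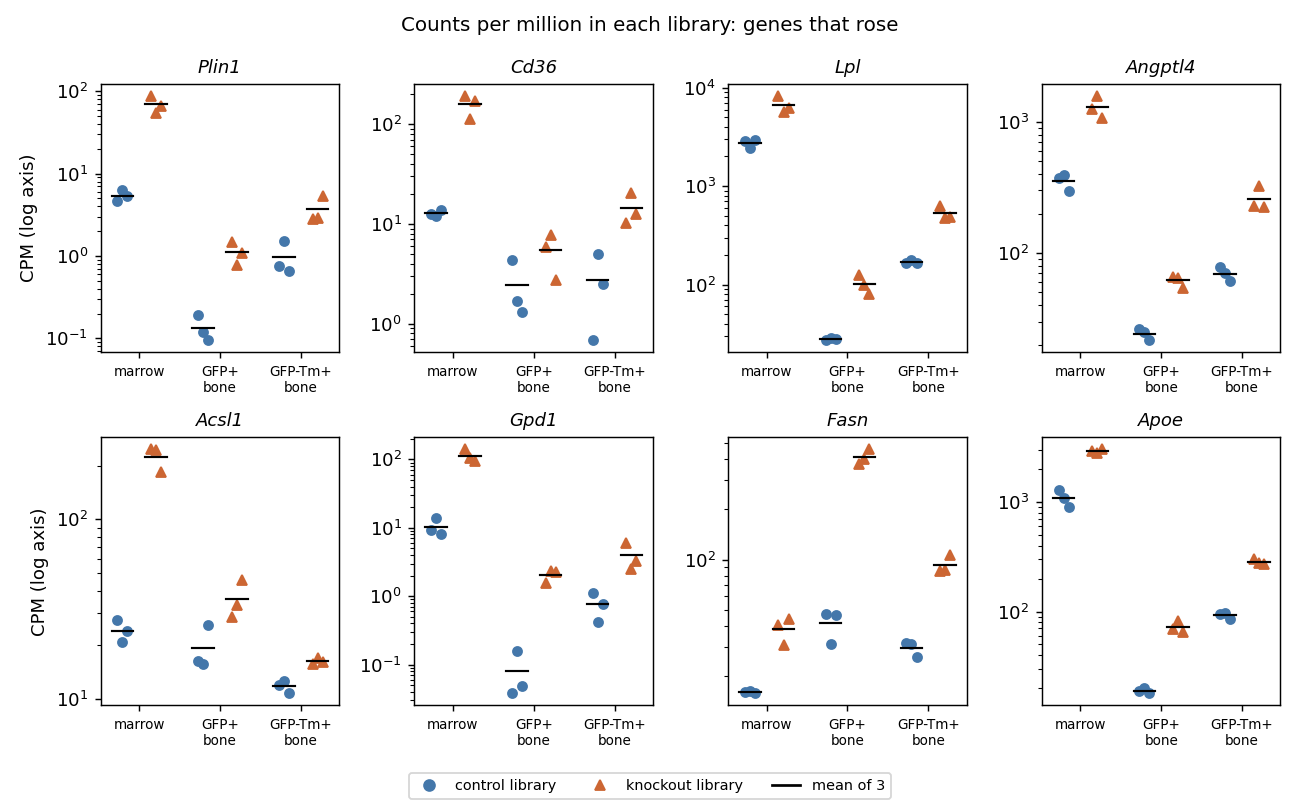
CPM of 8 genes that rose (log axis) in each library, with circles for controls, triangles for knockouts and a line for the mean of 3. The knockout libraries of Angptl4 and Apoe lie above the controls in all 3 subsets, and the 2 genotypes of Acsl1 lie further apart in marrow than in either bone subset.

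Of the 3 lipases that empty the droplet, hormone-sensitive lipase was the one called. Lipe measured 4.12, 8.38 and 5.86 CPM in control marrow and 38.0, 42.1 and 27.9 CPM in knockout marrow, with no overlap (2.57 ± 0.25, adjusted p 1.68e-07). In GFP-Tm+ bone cells it rose from 1.77 to 4.23 CPM (1.24 ± 0.40), a call lost without replicate 3 of either genotype (adjusted p 0.0729 and 0.0787). Pnpla2, the adipose triglyceride lipase that acts before it, measured 31.5, 48.7 and 153 against 110, 142 and 120 CPM in marrow. Control replicate 3 lay above all knockout libraries, and the fold was 0.68 ± 0.40 (adjusted p 0.183) with it and 1.63 (adjusted p 2.87e-06) without it. That library also had the highest summed smooth muscle and pericyte markers, 2540 CPM against 746 and 1040 in the other marrow controls and 166 to 221 in the knockouts, whose part was not tested. Mgll, which splits monoglycerides, was not called in any subset (-0.09 ± 0.17 in marrow).

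Fatty acid activation differed between the subsets by isoform. Acsl1, the long-chain acyl-CoA synthetase of adipocytes and liver (chromosome 8), measured 27.3, 20.8 and 23.7 CPM in control marrow and 246, 243 and 184 CPM in knockout marrow. In GFP+ bone cells it measured 16.3, 15.6 and 25.6 against 28.7, 33.2 and 46.2 CPM. The GFP-Tm+ bone values were 11.9, 12.5 and 10.7 against 15.5, 16.8 and 16.1 CPM. The marrow fold of 3.23 ± 0.19 (adjusted p 9.98e-10) exceeded that of GFP+ bone cells by 2.32 and that of GFP-Tm+ bone cells by 2.76 on the log2 scale (adjusted p 8.32e-06 and 1.31e-05). The bone values were 0.91 ± 0.19, whose call ended with the length trend removed (0.18, adjusted p 0.461), and 0.47 ± 0.21, which was not called and became -0.12 with the trend removed. Acsl3 rose in GFP+ bone cells (0.58 ± 0.11; 0.19 and no longer called by library totals alone). Acsl4 was called there too (0.73 ± 0.16), but not with the length trend removed (0.12) or by library totals alone (0.35).

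Of the 6 genes of triglyceride synthesis all rose in marrow, and 4 rose and 1 fell in each bone subset, where 23.1%, 26.0% and 21.5% of all genes were called higher. After removal of the length trend 5, 4 and 2 were called higher and none lower, and the median in GFP-Tm+ bone cells went from 0.77 to 0.23. Gpd1, which makes the glycerol phosphate backbone, measured 9.24, 13.8 and 8.09 CPM in control marrow and 140, 104 and 94.3 CPM in knockout marrow. The groups were far apart (3.44 ± 0.22, adjusted p 5.60e-10). In GFP+ bone cells Gpd1 went from 0.0813 to 2.05 CPM (4.52 ± 0.73), with control counts near 0. With 1 library left out this fold ran from 4.15 to 5.39, the highest without control replicate 2. In GFP-Tm+ bone cells Gpd1 rose by 2.39 ± 0.44.

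Lpin1, the phosphatidate phosphatase, measured 15.7, 18.5 and 16.6 against 74.2, 64.2 and 79.4 CPM in GFP+ bone cells, without overlap (2.10 ± 0.17, adjusted p 2.01e-08, and 1.40 with the length trend removed). It rose by 1.37 ± 0.18 in marrow and 0.83 ± 0.19 in GFP-Tm+ bone cells, the latter not called with the length trend removed (0.26, adjusted p 0.339). Gpam, which adds the initial acyl chain, rose by 1.04, 1.44 and 0.88 in the 3 subsets, but with the trend removed by 0.41, 0.59 and 0.20 and only the GFP+ call remained. Dgat2, an enzyme of the last step, rose by 2.11 ± 0.23 in marrow and 0.84 ± 0.23 in GFP+ bone cells (0.46 and not called by library totals alone). In GFP-Tm+ bone cells it was called at 0.70 ± 0.26, a call lost by library totals alone (0.46) and without replicate 1 or 3 of the controls or 2 or 3 of the knockouts (adjusted p up to 0.128). Its counterpart Dgat1 rose in marrow (0.71 ± 0.17) and was not called in the bone subsets (-0.43 ± 0.18 and -0.21 ± 0.19).

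Agpat2, the acyltransferase whose loss causes lipodystrophy, measured 30.1, 26.6 and 26.0 against 50.5, 43.6 and 47.6 CPM in marrow. It measured 38.7, 38.0 and 46.3 against 27.2, 25.4 and 30.4 CPM in GFP+ bone cells. The GFP-Tm+ bone values were 28.1, 25.8 and 25.7 against 20.3, 21.3 and 19.3 CPM. Knockout libraries were thus all higher in marrow (0.77 ± 0.11) and all lower in GFP+ (-0.57 ± 0.11) and GFP-Tm+ bone cells (-0.38 ± 0.11). With the length trend removed the marrow call remained (1.13) and the bone calls did not (-0.17 and 0.09). The differences from the marrow fold, -1.34 ± 0.15 and -1.16 ± 0.16, were called with and without that correction (adjusted p 9.24e-06 and 1.28e-04 without it).

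Of the 8 genes of fatty acid synthesis, elongation and desaturation, 5 rose and 2 fell in marrow, 6 rose and none fell in GFP+ bone cells, and 2 rose and 3 fell in GFP-Tm+ bone cells. Over all genes 23.1%, 26.0% and 21.5% were called higher and 24.8%, 25.3% and 25.7% lower, so the GFP-Tm+ counts were near the shares of all genes. With the length trend removed the counts were 4 and 2, 5 and 1, and 2 and 4. Fasn, the fatty acid synthase (chromosome 11, 120805846 to 120824547, mm10), measured 47.0, 31.1 and 46.3 CPM in control GFP+ bone cells and 373, 401 and 459 CPM in knockout ones. The GFP-Tm+ bone values were 31.7, 31.0 and 25.9 against 85.7, 86.5 and 106 CPM. In marrow it measured 15.9, 16.1 and 15.7 against 40.5, 30.6 and 43.9 CPM. No groups overlapped, and the folds were 3.31 ± 0.16 (adjusted p 5.80e-11), 1.65 ± 0.16 (adjusted p 1.18e-07) and 1.27 ± 0.16 (adjusted p 3.48e-06), or 2.13, 0.77 and 0.42 with the length trend removed, all still called. The GFP+ fold exceeded the marrow fold by 2.04 ± 0.22 and the GFP-Tm+ fold by 1.66 ± 0.22 (adjusted p 5.10e-06 and 7.74e-05).

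The enzymes that supply Fasn also rose in GFP+ bone cells. Acly, which makes cytosolic acetyl-CoA, measured 293, 259 and 298 against 537, 531 and 532 CPM. Acaca, the acetyl-CoA carboxylase of the cytosol, measured 2.24, 3.59 and 1.73 against 13.4, 13.3 and 12.5 CPM. The groups were well apart for both, with folds of 0.91 ± 0.08 and 2.35 ± 0.27 (adjusted p 4.52e-08 and 6.80e-07; 0.59 and 1.19 with the length trend removed). In marrow Acaca rose by 1.82 ± 0.26 (0.99 with the trend removed) and Acly by 0.36 ± 0.08, which was not called with the trend removed (0.13). In GFP-Tm+ bone cells neither was called (Acly at 105, 121 and 129 against 112, 118 and 112 CPM), and the Acly fold there was lower than in GFP+ bone cells by 0.97 log2 (adjusted p 3.19e-05).

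Acacb, the mitochondrial carboxylase whose product inhibits CPT1, measured 0.564, 0.157 and 0.479 CPM in control GFP-Tm+ bone cells and 5.32, 7.78 and 6 CPM in knockout ones. Control counts were close to 0 and all knockouts higher, with a fold of 4.02 ± 0.44 (adjusted p 4.81e-07, 3.17 with the trend removed). Acacb rose as well in marrow (4.18 ± 0.45, 3.37 with the trend removed) and GFP+ bone cells (2.35 ± 0.42, 1.23 with the trend removed). With 1 library left out the marrow fold ran from 3.77 to 5.08, the highest without control replicate 2. Per kilobase of exon Acacb stood at 0.206 ± 0.0943 of the level of Acaca in control and 2.38 ± 0.652 in knockout GFP-Tm+ bone cells.

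Scd1, the stearoyl-CoA desaturase of fat and liver, measured 41.6, 109 and 76.3 CPM in control marrow and 586, 615 and 345 CPM in knockout marrow. The GFP-Tm+ bone values were 110, 109 and 131 against 98.6, 75.2 and 89.6 CPM. It rose in marrow (2.77 ± 0.27) and was not called in GFP-Tm+ (-0.41 ± 0.26) or GFP+ bone cells (0.03 ± 0.25), with a difference between GFP-Tm+ and marrow folds of -3.18 ± 0.37 (adjusted p 9.45e-05).

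Scd2, the main desaturase of many other tissues, measured 105, 94.7 and 93.4 against 70.9, 58.4 and 63.6 CPM in marrow. It measured 841, 832 and 920 against 1190, 1180 and 1340 CPM in GFP+, and 292, 298 and 313 against 167, 139 and 174 CPM in GFP-Tm+ bone cells. It fell in marrow (-0.60 ± 0.10) and in GFP-Tm+ bone cells (-0.92 ± 0.10, adjusted p 4.82e-07), and was called higher in GFP+ bone cells (0.52 ± 0.10), where the value with the length trend removed was -0.15 (adjusted p 0.242) and that by library totals alone 0.14. The difference between the bone subsets, 1.43 ± 0.14 (adjusted p 4.87e-06), was still called with the trend removed (1.31). Per kilobase, Scd1 stood at 0.887 ± 0.425 of the level of Scd2 in control marrow and 9.10 ± 2.89 in knockout marrow, and at 0.402 ± 0.0379 and 0.286 ± 0.0240 in GFP+ bone cells.

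Elovl6, which lengthens palmitate, measured 14.5, 19.2 and 20.5 against 7.39, 7.98 and 7.55 CPM in GFP-Tm+ bone cells. It measured 37.6, 36.0 and 40.5 against 43.0, 43.9 and 45.6 CPM in GFP+ bone cells. All GFP-Tm+ knockout libraries were lower (-1.24 ± 0.19, adjusted p 2.19e-05, and -1.89 with the trend removed), while in GFP+ cells the fold of 0.22 ± 0.15 was not called and became -0.58 (adjusted p 0.00537) with the trend removed. The difference of 1.46 ± 0.24 between these subsets was called (adjusted p 8.76e-04). Elovl5, the elongase of polyunsaturated fatty acids, measured 56.4, 63.7 and 76.9 against 40.5, 37.5 and 39.9 CPM in marrow, a fall without overlap (-0.74 ± 0.10). It was called higher in GFP+ bone cells (0.37 ± 0.10; -0.01 by library totals alone). In GFP-Tm+ bone cells it was called lower (-0.27 ± 0.10), but not with the trend removed (-0.06), with DESeq2 (-0.17) or when any library but control replicate 1 was left out (adjusted p up to 0.141).

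**Figure D4:**
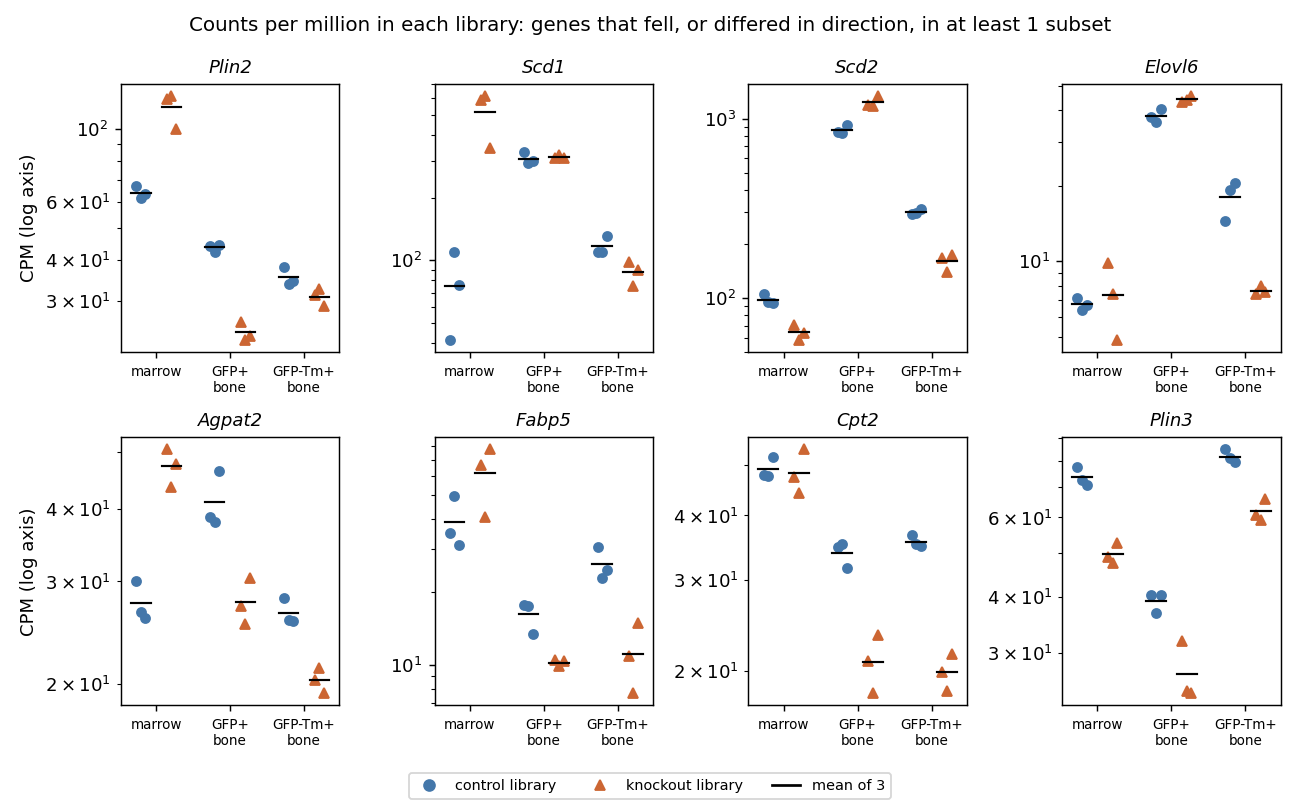
CPM of 8 genes that fell, or whose direction differed between subsets (log axis), in each library, with circles for controls, triangles for knockouts and a line for the mean of 3. Scd1 moves in marrow alone among the called values, Scd2 moves up in GFP+ and down in the other subsets, and Plin3 is lower in every knockout library than in any control of its subset.

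Among the 6 oxidation genes, Cpt1a and Pdk4, which control fuel entry, rose in all 3 subsets, while 2 of the mitochondrial enzymes fell in each bone subset. Over all genes 23.1%, 26.0% and 21.5% were called higher in the 3 subsets, and 25.3% and 25.7% lower in GFP+ and GFP-Tm+ bone cells. Of these falls only those of Cpt2 stayed called with the length trend removed. Cpt1a, which commits fatty acids to entry, measured 12.6, 22.6 and 14.1 against 48.7, 46.6 and 56.1 CPM in GFP-Tm+ bone cells, without overlap (1.61 ± 0.20, adjusted p 3.04e-06). It also rose in marrow (0.87 ± 0.19) and GFP+ bone cells (1.09 ± 0.25). Pdk4, a kinase that shuts off pyruvate dehydrogenase in fasting, rose in GFP+ (1.49 ± 0.27) and GFP-Tm+ bone cells (0.93 ± 0.25), and in marrow (0.81 ± 0.25) with a call that was lost without knockout replicate 2 (0.49, adjusted p 0.0828).

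Cpt2, the inner membrane partner of Cpt1a, measured 34.8, 35.2 and 31.6 against 20.9, 18.1 and 23.5 CPM in GFP+ bone cells. The GFP-Tm+ bone values were 36.7, 35.2 and 34.9 against 19.9, 18.3 and 21.6 CPM. It fell without overlap in both (-0.71 ± 0.11 and -0.84 ± 0.11) and was not called in marrow (-0.03 ± 0.10). Acadl, a long-chain acyl-CoA dehydrogenase, measured 59.0, 58.0 and 63.5 against 38.0, 46.5 and 45.8 CPM in GFP-Tm+ bone cells. Acadm, its medium-chain relative, measured 36.2, 32.5 and 37.0 against 29.2, 28.8 and 28.3 CPM in GFP+ bone cells. Both were called lower there (-0.47 ± 0.12 and -0.29 ± 0.12), but neither with the length trend removed (-0.08 and 0.02), and the Acadm call was also lost with DESeq2 (adjusted p 0.0672) or when any library but control replicate 2 was left out (up to 0.156). Hadha, of the trifunctional protein, was not called in any subset (-0.07, -0.18 and -0.22), but was called lower in both bone subsets with the length trend removed (-0.36 and -0.33).

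Adipoq, the adipokine adiponectin, was among the most abundant of the 40 genes in marrow, at 2250, 1630 and 1350 CPM in controls and 1940, 2220 and 2080 CPM in knockouts. These groups overlapped (0.26 ± 0.19, adjusted p 0.284), though it was called with the length trend removed (0.65, adjusted p 0.00853) and without control replicate 1 (0.48, adjusted p 0.0388). It rose in GFP+ bone cells from 8.67 ± 1.66 to 26.9 ± 5.92 CPM (1.65 ± 0.23) and in GFP-Tm+ bone cells from 78.8 ± 20.8 to 151 ± 7.44 CPM (0.94 ± 0.20). Of 9 markers of mature adipocytes not among the 40 genes, Lep, the hormone leptin, was at 0 in all libraries but 1 knockout marrow library, at 0.112 CPM. The 9 summed to 353 to 403 CPM in control and 647 to 821 in knockout marrow, to 4.44 to 5.24 and 15.4 to 16.3 in GFP+, and to 18 to 27.0 and 52.2 to 69.2 in GFP-Tm+ bone cells. In marrow Cfd, Pparg and Cebpa made up most of it. There Cfd was not called (0.08 ± 0.6), while Pparg (1.02 ± 0.19) and Cebpa (1.32 ± 0.17) rose. Retn (3.37 ± 0.39), Lgals12 (3.2 ± 0.35) and Adig (2.18 ± 0.39) rose without overlap, to knockout means of 5.86, 9.64 and 2.66 CPM. Pck1 was called higher in marrow (2.4 ± 0.88) with groups that overlapped. The part of mature adipocytes in the folds was not tested.

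In the controls the subsets had different lipid gene profiles. Against marrow, GFP+ bone cells were higher for 9 of the 40 genes and lower for 23 (29.8% and 33.0% of all genes), and GFP-Tm+ bone cells higher for 6 and lower for 20 (21.1% and 18.2% of all genes). Against GFP-Tm+ bone cells, GFP+ bone cells were higher for 10 and lower for 13 (18.2% and 21.8% of all genes), or 14 and 11 by library totals alone. Per kilobase of exon, the highest of the 40 genes in control marrow were Adipoq (1260), Apoe (510), Lpl (262) and Angptl4 (108 CPM per kilobase). In control GFP+ bone cells they were Scd2 (158), Scd1 (63.5) and Acly (53.6), and in control GFP-Tm+ bone cells Adipoq (57.0), Scd2 (55.2) and Apoe (43.3). The desaturases and Acly thus led in GFP+ bone cells, where Scd2 was 3.14 log2 above marrow (adjusted p 5.38e-15) and Lpl 6.61 log2 below it (adjusted p 1.04e-15).

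Whether the knockout fold itself differed between subsets was tested for each gene, with the libraries taken as unpaired. Between GFP+ bone cells and marrow 9 genes had a higher and 11 a lower fold in the bone cells, where 10.8% and 7.60% of all genes did (4 and 16 genes by library totals alone, 7 and 10 with the length trend removed). Between GFP-Tm+ bone cells and marrow none was higher and 11 were lower (4.49% and 3.31% of all genes, and 18 lower by library totals alone). Between the bone subsets 7 were higher in GFP+ cells and 1, Plin2, was lower (4.98% and 1.11%). Plin2, Fabp5, Dgat1, Dgat2, Agpat2, Acsl1, Scd1 and Cpt2 had lower folds than marrow in both bone subsets, and these 2 tests share the marrow libraries. The 7 genes with a higher fold in GFP+ than in GFP-Tm+ bone cells were Lpin1, Acaca, Fasn, Acly, Elovl5, Elovl6 and Scd2, of which all but Lpin1 act in fatty acid synthesis, elongation or desaturation.

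**Figure D5:**
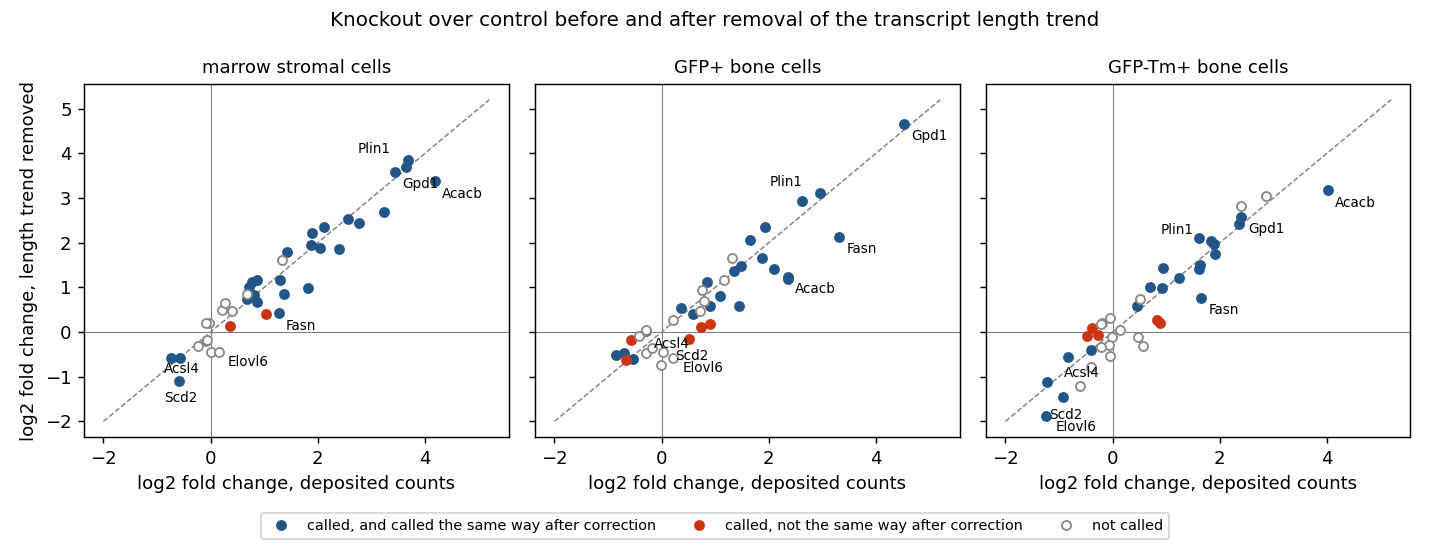
Log2 fold change of each of the 40 genes from the deposited counts (horizontal) and with the transcript length trend removed (vertical), for the 3 subsets. Points below the dashed line of equality lose in fold, as Fasn does (3.31 to 2.13 in GFP+ bone cells), and red points are called genes that were not called the same way after the correction.

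Lipid genes outside the 40 were counted from lists of the same pathways, which were chosen with earlier results of these data known. For each list the shares over all genes are those above, 23.1% higher and 24.8% lower in marrow, 26.0% and 25.3% in GFP+ and 21.5% and 25.7% in GFP-Tm+ bone cells, with medians of -0.04, 0.03 and -0.07. Of 18 transcription regulators of lipid genes, 13 rose and 1 fell in marrow, 10 rose and none fell in GFP+ bone cells, and 8 rose and 3 fell in GFP-Tm+ bone cells, with medians of 0.89, 0.55 and 0.67. Without the length trend the counts were 11 and 2, 8 and 0, and 7 and 3, and the medians 0.72, 0.33 and 0.42. Cebpa, a driver of fat cell differentiation, rose in all 3 (1.32 ± 0.17, 1.56 ± 0.25 and 1.63 ± 0.20). Cebpd, which acts before it, rose in marrow from 283 ± 46.8 to 763 ± 66.2 CPM (1.43 ± 0.16). Insig1, which helps to hold SREBP in the endoplasmic reticulum, fell in marrow (-1.19 ± 0.14) and GFP-Tm+ bone cells (-0.87 ± 0.13) and was not called in GFP+ bone cells (0.16 ± 0.13).

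Of 25 other oxidation genes 5 rose and 6 fell in marrow (6 and 4 with the length trend removed), near the shares of all genes. In the bone cells 3 rose and 21 fell in GFP+ (3 and 17) and 4 rose and 13 fell in GFP-Tm+ cells (5 and 8). The medians were -0.01, -0.56 and -0.32, or 0.08, -0.35 and -0.15 with the trend removed. Decr1, a mitochondrial reductase, fell in GFP+ and GFP-Tm+ bone cells (-0.88 ± 0.10 and -0.52 ± 0.10).

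Of 26 other synthesis genes 5 rose and 11 fell in marrow, 5 and 13 in GFP+ and 2 and 15 in GFP-Tm+ bone cells, with medians of -0.30, -0.28 and -0.47. These counts became, with the trend removed, 4 and 10, 4 and 13, and 2 and 14. The desaturase Fads2 fell in each (-1.39 ± 0.13, -0.62 ± 0.12 and -0.83 ± 0.12). The enoyl reductase Tecr fell in marrow (-1.11 ± 0.09) and GFP-Tm+ bone cells (-0.88 ± 0.09), and in GFP+ bone cells (-0.51 ± 0.09) its call ended with the trend removed (-0.08). Elovl4 rose in marrow (2.88 ± 0.27).

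Of 15 other droplet and lipolysis genes 6 rose and 4 fell in marrow, 4 and 5 in GFP+ and 2 and 4 in GFP-Tm+ bone cells, and with the length trend removed 6 and 1, 6 and 5, and 3 and 1. The glycerol channel Aqp7 rose in all 3 (1.93 ± 0.23, 2.14 ± 0.57 and 2.54 ± 0.38). Fitm2, of droplet budding, rose in marrow (1.70 ± 0.14) and fell in GFP+ bone cells (-0.48 ± 0.14), and Cidea rose in GFP+ bone cells from 1.79 to 9.99 CPM (2.48 ± 0.25). Of 14 other uptake genes 3 rose and 8 fell in marrow, 5 and 3 in GFP+ and 3 and 3 in GFP-Tm+ bone cells, and with the trend removed 4 and 5, 4 and 4, and 2 and 2. The lipoprotein receptor Lrp1 rose in each subset (1.78 ± 0.18, 2.22 ± 0.19 and 1.55 ± 0.19; 0.88, 0.88 and 0.63 with the length trend removed).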

How the data were processed

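RNA of sorted cells was amplified with a low-input kit (SMART-Seq v4), per the labels' protocols, and sequenced as 18 libraries. The authors deposited raw counts of reads per gene for each library, made with featureCounts per the file headers. STAR and build mm10 are named in the submitters' processing notes. The strand setting and the handling of reads with several matches are not given in the sources used here. No library was dropped or merged, since no pair of replicates was as alike as counting error alone allows (chi-square over its degrees of freedom, 15 to 56.5).

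Genes were filtered with filterByExpr (minimum count 10, minimum total 15), scaled by TMM and tested in 1 edgeR 4.0.16 quasi-likelihood model of the 6 group means (R 4.3.3), with Benjamini-Hochberg adjustment over 15516 genes and a threshold of 0.05. The test was checked on simulated data. The standard error is the log2 fold change divided by the root of the F statistic. The length fit took from each library a lowess (span 0.3) of its deviations on log2 transcript length (GENCODE M21). Levels of different genes were compared as CPM per kilobase of merged exons. Symbols were matched for 54409 of 54446 gene IDs. Promoter windows are RefSeq's.

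All 40 genes are named. Each library's value is given for genes called in a knockout comparison whose groups did not overlap and reached 5 CPM in the higher one, up to the 6 rises and 6 falls with the smallest p in each, and for the 4 with the smallest p in each test of a difference between subsets. Of each other list up to 3 genes with the smallest p are named. Some genes that this rule picks are not reported here. The genes and lists were chosen with earlier results of these data known. Alternatives were DESeq2 1.42.0, its size factors in edgeR, library totals alone, no filter, only the libraries compared, the replicate number as a block, the length fit, and each library left out in turn.

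Replicate numbers come from the labels, which do not say what they share. Deviations from the group means (9729 genes) of equally numbered libraries correlated at 0.177 to 0.407 between knockout subsets and at 0.0954 to 0.257 between control subsets, where only GFP+ and marrow number 1 was under 0.1. On this basis the numbers were taken to mark pairs between subsets of a genotype, save control GFP+ with marrow. The main fit, which gave the p-values for differences between subsets, nonetheless had no term for these pairs. Only the block fit had one. Between knockout and control of a subset the correlations ran from -0.0975 to 0.217, and the numbers were not taken as pairs. For the knockout comparisons the block fit nonetheless used terms for the replicate number that both genotypes shared.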

Additional observations from a re-analysis of the deposited data

Results flagged for a closer look

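The knockout fold of 20 of the 40 genes differed between GFP+ bone cells and marrow by a test of the difference itself. In log2 units, GFP+ bone cells minus marrow, the lower ones were Plin2 at -1.72, Cd36 at -2.49, Fabp5 at -1.33, Lipe at -1.78, Dgat1 at -1.14, Dgat2 at -1.26, Agpat2 at -1.34, Acsl1 at -2.32, Scd1 at -2.75, Cpt2 at -0.68 and Acadm at -0.50. The higher ones were Lpin1 at 0.73, Acsl3 at 0.80, Acsl4 at 0.72, Fasn at 2.04, Acly at 0.56, Elovl5 at 1.11, Scd2 at 1.12, Adipoq at 1.39 and Apoe at 0.51. With the length trend removed Lpin1 (0.54, adjusted p 0.155), Acsl4 (0.55, adjusted p 0.102) and Acadm (-0.47, adjusted p 0.0509) were no longer called. Cd36 was no longer called without control GFP+ replicate 1 (-1.75, adjusted p 0.147), nor Lipe without control GFP+ replicate 2 (-1.55, adjusted p 0.0746). Calls were lost in 8 of the 12 fits that leave out a library for Acadm (-0.50 to -0.44), 6 for Acsl4 (0.60 to 0.72), 7 for Apoe (0.36 to 0.51) and 10 for Lpin1 (0.53 to 0.80).

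Between GFP-Tm+ bone cells and marrow the fold of 11 genes differed, each lower in the bone cells: Plin1 at -1.85, Plin2 at -1.06, Fabp5 at -1.89, Dgat1 at -0.92, Dgat2 at -1.40, Agpat2 at -1.16, Acsl1 at -2.76, Acly at -0.41, Elovl6 at -1.39, Scd1 at -3.18 and Cpt2 at -0.81. Plin1 was no longer called without replicate 2 of the GFP-Tm+ controls or of the GFP-Tm+ knockouts (-1.70 to -1.34, adjusted p 0.0556 to 0.228), nor Dgat2 without control GFP-Tm+ replicate 2 (-1.24, adjusted p 0.0568). Calls were lost in 8 fits that leave out a library for Dgat1 (-0.93 to -0.75) and 9 for Acly (-0.43 to -0.35).

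Between GFP+ and GFP-Tm+ bone cells the fold of 8 genes differed: Plin2 at -0.66, Lpin1 at 1.27, Acaca at 1.79, Fasn at 1.66, Acly at 0.97, Elovl5 at 0.64, Elovl6 at 1.46 and Scd2 at 1.43. Acaca was no longer called without control GFP-Tm+ replicate 3 (1.68, adjusted p 0.0501).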

How the results depend on the processing

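By library totals alone 5676 in place of 2853 genes were called for the fold of GFP+ bone cells minus marrow, and 3735 in place of 1209 for GFP-Tm+ bone cells minus marrow, with 18 in place of 11 of the 40 genes. DESeq2 called 1420 in place of 944 genes between the bone subsets. Among values called before or after the correction, direction turned with the length trend removed for Acsl4 in marrow (-0.44), Elovl6 (-0.58), Scd2 (-0.15) and Acadm (0.02) in GFP+ bone cells, and Agpat2 (0.09) and Acadm (0.31) in GFP-Tm+ bone cells. By library totals alone it turned, among values called in either fit, for Elovl5 in GFP+ bone cells (-0.01) and, for GFP+ bone cells minus marrow, for Plin3 (-0.48) and Apoe (-0.01). There the difference for Pnpla2 ran from -0.88, without control marrow replicate 3, to 0.45 over the fits that leave out a library. The cause was not tested in any of these. The 3 knockout comparisons kept their counts of called genes within 1.5 times under every alternative run, with 27 to 29, 25 to 28 and 22 to 24 of the 40 genes called when a library was left out. At these depths Plin5, and Plin1 and Gpd1 in GFP+ controls, lie near the level of a count of 0.

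With the replicate number as a block, 29, 29 and 26 of the 40 genes were called in marrow, GFP+ and GFP-Tm+ bone cells, in place of 28, 27 and 25. Between subsets it added calls for Lpl (0.57) and Angptl4 (-0.52) in GFP+ bone cells minus marrow, Elovl5 (0.46) and Cpt1a (0.75) in GFP-Tm+ bone cells minus marrow, Angptl4 (-0.53) between the bone subsets, and Fabp5 (-0.56) in control GFP-Tm+ bone cells against marrow. It changed no other such call. The fold of GFP+ bone cells minus marrow rests in part on control groups whose numbers were not taken as pairs, though the block fit matched them by number.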
